A study of Mus musculus with 2 samples.

Results

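The YAP and TEAD target genes described here are 9 genes, Cyr61, Ctgf, Ankrd1, Amotl2, Ajuba, Lats2, Yap1, Wwtr1 and Tead1, out of 27998 gene names in the count files. They were chosen by name, all 9 have a row in each file, and their values are given by cell class, endothelial subtype and library. The old library holds cells of 1 mouse aged 18 months and the young library cells of 1 mouse aged 8 weeks, both C57BL6/J with no treatment or genetic change named. Cells were lifted off the exposed inner surface of the aorta with trypsin and a small scalpel after the adventitia, the outer coat, had been dissected away. A droplet method counted transcripts at their 3′ ends by unique molecular identifiers (UMIs). The old library held 3408 barcodes with 19171045 UMIs and a median of 4737 UMIs each, and the young library 1366 barcodes with 12576023 UMIs and a median of 7558.5. The libraries shared 11 barcode sequences. Each age rests on a single animal and the ages were not compared by a test. Every 95% interval covers counting error only, and "higher" and "lower" describe these 2 libraries.

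In the Hippo pathway, a kinase cascade ending in LATS1 and LATS2 phosphorylates the co-activators YAP (Yap1) and TAZ (Wwtr1) and keeps them out of the nucleus. When the cascade is inactive they enter the nucleus, bind TEAD transcription factors such as TEAD1, and raise targets that include Cyr61, Ctgf, Ankrd1 and Ajuba and, as negative feedback, Lats2 and Amotl2. In arterial endothelium the pathway is known for its response to flow: disturbed flow raises YAP and TAZ activity and steady laminar flow lowers it.

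Promoter sequence is shown first because TEAD proteins bind DNA at a short recognition sequence. RefSeq promoters (GRCm38.p6) were matched for 7 of the 9 genes, Cyr61, Ankrd1, Amotl2, Ajuba, Lats2, Yap1 and Wwtr1. The 250 bases before each start given by RefSeq were searched on both strands for GGAATG, the core of the TEAD motif, which reads CATTCC on the other strand. A match was present in 6 of the 7 genes and absent from both Lats2 promoters, while 12.6% of all 32817 promoters of the table held one. The stretch before Cyr61, the gene with the highest UMI count of the 9, is given whole (chr3:145649986-145650235, minus strand), with the single match, 103 to 98 bases before the start, in capitals.
Cyr61: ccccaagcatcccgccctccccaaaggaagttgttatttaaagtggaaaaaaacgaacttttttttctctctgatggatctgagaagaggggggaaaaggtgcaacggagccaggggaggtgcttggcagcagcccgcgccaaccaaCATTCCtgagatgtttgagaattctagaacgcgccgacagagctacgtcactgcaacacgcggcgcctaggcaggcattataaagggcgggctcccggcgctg

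The matches of the other genes are given with 10 bases on each side, 5′ to 3′ on the gene's strand and with the match in capitals, so that the flanks can be compared. The first Ankrd1 match lies 210 to 205 bases before the start and the second 123 to 118 bases before it. The Amotl2 match lies 65 to 60 bases before the start, and the Ajuba matches 186 to 181 and 164 to 159 bases before it. The Yap1 match lies 141 to 136 bases before the start and the Wwtr1 match 136 to 131 bases before the more distal of its 2 starts. In the GENCODE annotation all 250 bases of the Ankrd1 window and 136 bases of the Amotl2 window lie in exons of the same gene. The Ajuba window could not be checked for orientation, because the bases after its RefSeq start were not found in a GENCODE transcript of the gene.
Ankrd1, first match (chr19:36120039-36120064, minus strand): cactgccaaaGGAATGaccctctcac
Ankrd1, second match (chr19:36119952-36119977, minus strand): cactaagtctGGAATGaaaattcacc
Amotl2 (chr9:102717729-102717754, plus strand): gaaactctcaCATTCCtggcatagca
Ajuba, first match (chr14:54577832-54577857, minus strand): ttgatggataCATTCCacagtgcccc
Ajuba, second match (chr14:54577810-54577835, minus strand): cccctccgcgCATTCCaactgtaaac
Yap1 (chr9:8004722-8004747, minus strand): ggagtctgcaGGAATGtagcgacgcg
Wwtr1 (chr3:57576031-57576056, minus strand): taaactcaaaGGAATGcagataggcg

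Neither the AP-1 motif TGANTCA, held by 6.75% of all promoters, nor the CArG box, held by 1.47%, was found in these windows of the 7 genes. AP-1 is the factor formed by Fos and Jun proteins and the CArG box is read by serum response factor. These are matches of letters in a short window and say nothing of binding or of more distant elements.

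Cells were sorted into classes by clusters named from marker genes, with the 9 genes, their wider pathway lists and the immediate early genes kept out of the clustering. In each endothelial-like (EC-like) cluster, 9 of the 10 endothelial markers of the list were seen in at least 25% of cells. Summed over the class, all 10 had UMIs in both libraries, which was also so in fibroblast-like cells. EC-like cells were 2393 of 3330 old cells (71.9%) and 1093 of 1359 young cells (80.4%). Their median was 4995 UMIs in old and 7373 UMIs in young. Fibroblast-like cells were 572 old cells (17.2%) and 239 young cells (17.6%). EC-like clusters were each labelled whole, by marker genes, as a Coch/Sost/Adra2a subtype (491 old and 434 young cells) or a Bcan/Isl1/Frzb subtype (1902 old and 659 young cells). Not every cell under a label showed its markers. An alternative rule asked each cell for more markers of one subtype than of the other. It gave 527 old and 504 young Coch/Sost/Adra2a cells, and 1146 old and 324 young Bcan/Isl1/Frzb cells. Within the EC-like class the libraries lay mostly in different clusters: clusters 0 and 1 held 31 old and 981 young cells, and clusters 2, 4 and 5 held 2362 old and 112 young cells. A cluster of 40 old and 2 young cells led by Acta2, Tagln and Myh11 also carried endothelial markers and stayed unnamed. Summed smooth muscle markers in EC-like cells were 330 CPM in old and 309 CPM in young (CPM, UMIs per 1000000 UMIs of the class in that library), and haemoglobin and erythroid markers 604 CPM in old and 25.3 CPM in young.

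Among the 9 genes, the secreted targets Cyr61 and Ctgf were lower in old when summed over all EC-like cells. Amotl2 and Ajuba were lower by less. Inside single EC-like clusters only Cyr61 was lower in old in each cluster compared. The genes of the transcriptional machinery, Wwtr1 and Tead1, had nearly equal levels in both libraries over the class. Yap1 was slightly higher in old over the class, and its interval held 0 in each EC-like cluster compared. Of the 9, 8 had at least 100 UMIs over both libraries in this class, the minimum for a ratio to be counted, and 2 of these 8 had a log2 ratio of old over young of -1 or less, where 1.99% of all 10033 genes with that many UMIs did. None had a ratio of 1 or more, against 1.31% of all genes. The median log2 ratio of the 8 was -0.37, beside 0.06 over all genes, whose 5th to 95th percentiles ran over -0.59 to 0.58.

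**Figure D1:**
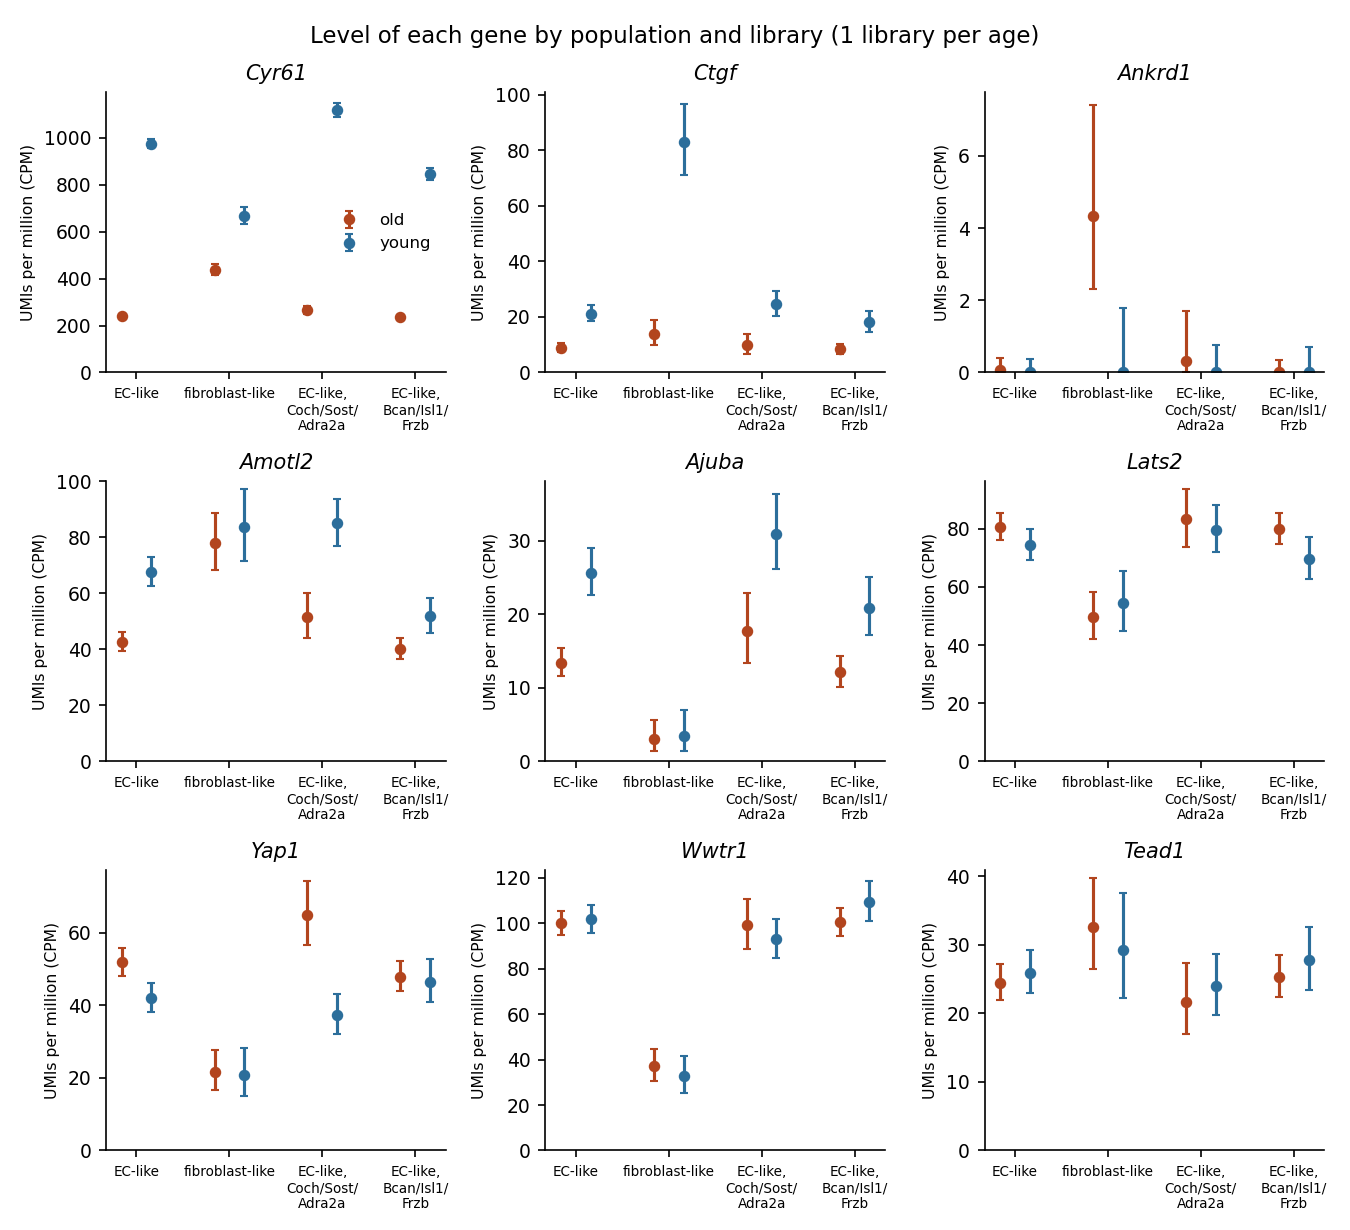
Level of each of the 9 genes in CPM (vertical axes, linear, from 0), in EC-like cells, fibroblast-like cells and the 2 endothelial subtypes, with old left of young. Points are 1 library each and bars are exact 95% Poisson intervals for counting error. Cyr61 lies at 243 CPM in old and 976 CPM in young EC-like cells, Wwtr1 at 100 CPM in old and 102 CPM in young.

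Cyr61 (chromosome 3, 145646976 to 145649981, GRCm38) encodes a matricellular protein that binds integrins and is a direct target of YAP and TEAD. It had 3433 UMIs in old and 9900 UMIs in young EC-like cells, which is 243 CPM in old (235 to 251) and 976 CPM in young (957 to 996). The log2 ratio of old over young was -2.01 (-2.07 to -1.95), so the young level was 4.02 times the old one. Of all genes tested in this class, 0.289% had a lower ratio. In fibroblast-like cells Cyr61 stood at 437 CPM in old and 667 CPM in young, a log2 ratio of -0.61 (-0.72 to -0.50). The order of the 2 classes therefore turned with the library: EC-like over fibroblast-like, the log2 ratio was -0.85 (-0.94 to -0.76) in old and 0.55 (0.47 to 0.63) in young. The subtypes had the same direction as the whole class. In the Coch/Sost/Adra2a subtype Cyr61 was at 267 CPM in old and 1119.5 CPM in young, a log2 ratio of -2.07, and in the Bcan/Isl1/Frzb subtype at 235 CPM in old and 847 CPM in young, a log2 ratio of -1.85. Within a library the Coch/Sost/Adra2a subtype was above the Bcan/Isl1/Frzb subtype, by a log2 ratio of 0.18 (0.07 to 0.29) in old and 0.40 (0.35 to 0.46) in young.

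The difference in Cyr61 was spread over many cells. After each cell was thinned to 3100 UMIs and shallower cells were left out (562 old and 105 young EC-like cells), Cyr61 was seen in 701 of 1831 old cells (38.3%, 36.1 to 40.6%) and in 673 of 988 young cells (68.1%, 65.1 to 71.0%). Without thinning the shares were 48.7% in old and 76.9% in young. At equal depth the old cells had a mean of 0.725 UMIs, a median of 0, a 90th percentile of 2 and a highest value of 9, and the young cells a mean of 2.95 UMIs, a median of 2, a 90th percentile of 8 and a highest value of 20. In fibroblast-like cells the shares at equal depth were 48.4% in old and 63.1% in young. Immune classes, which should largely lack it, were read beside these. Free RNA, missed doublets and true expression could not be told apart in them. Old T or NK-like cells had 38.3 CPM and old monocyte or macrophage-like cells 64.0 CPM, from medians of 2441 and 4092 UMIs. Without thinning 4.88% of 123 old T or NK-like cells and 17.4% of 155 old monocyte or macrophage-like cells had a UMI. At equal depth it was 4 of the 31 T or NK-like cells that reached it (12.9%, 3.63 to 29.8%) and 16 of 110 monocyte or macrophage-like cells (14.5%, 8.55 to 22.5%). The young library had only 10 and 13 cells of these classes, with 148 and 664 CPM.

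**Figure D2:**
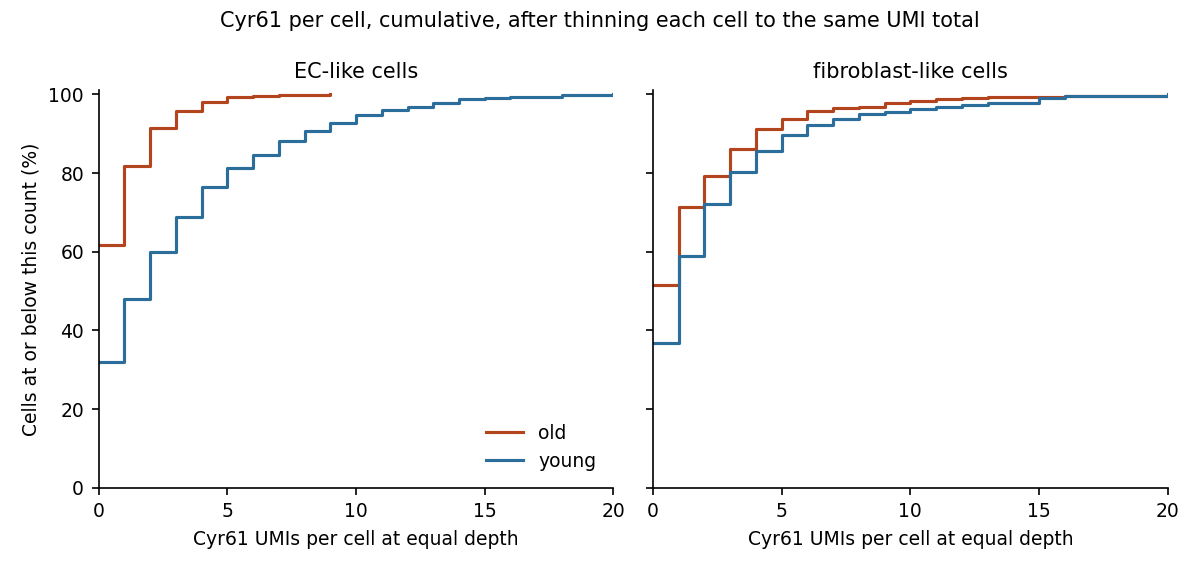
Share of cells (vertical axis, percent) with at most the number of Cyr61 UMIs on the horizontal axis, after thinning each cell to 3100 UMIs, for EC-like and fibroblast-like cells. The old curve starts at 61.7% of EC-like cells without a UMI and the young curve at 31.9%, and the curves of fibroblast-like cells lie closer together, at 51.6% in old and 36.9% in young.

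Inside the EC-like clusters that held at least 20 cells of each library the Cyr61 ratio was smaller than over the whole EC-like class. In cluster 0 it was 508 CPM over 27 old cells and 866 CPM over 580 young cells, a log2 ratio of -0.77 (-1.14 to -0.43). In cluster 2 it was 268 CPM over 487 old cells and 668 CPM over 33 young cells, a log2 ratio of -1.32 (-1.65 to -0.97). In cluster 5 it was 247 CPM over 1283 old cells and 533 CPM over 68 young cells, a log2 ratio of -1.11 (-1.35 to -0.85). All 3 intervals lie below 0, and all 3 clusters set a minority of one library beside the majority of the other. For Ctgf the log2 ratio in clusters 0, 2 and 5 was -0.16, 0.20 and -1.90. For Amotl2 it was 0.04, -0.57 and -0.83, and for Ajuba 0.09, 1.05 and -0.84. Of these, only the cluster 5 intervals of Ctgf (-2.75 to -0.93) and Amotl2 (-1.48 to -0.09) lay below 0. The minority sides held few UMIs of these genes. In the fibroblast-like clusters the Cyr61 log2 ratio was -1.43 (-1.80 to -1.08) in cluster 3 and -0.41 (-0.54 to -0.28) in cluster 6, on either side of the value over that class.

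Ctgf (chromosome 10, 24595442 to 24598683) encodes a second matricellular protein of the same family, a driver of matrix production and a standard readout of YAP and TAZ activity. It had 124 UMIs in old and 215 UMIs in young EC-like cells, or 8.76 CPM in old and 21.2 CPM in young, a log2 ratio of -1.27 (-1.61 to -0.95). At equal depth 2.35% of old and 4.96% of young EC-like cells had a UMI. Its UMIs lay in few cells: the 1% of EC-like cells with most Ctgf held 46.8% of its UMIs in old and 35.8% in young. The size of the ratio depended on which cells were counted, -1.99 with doublet calls kept and -0.77 when the unnamed smooth muscle marked cluster was counted as EC-like, an alternative chosen after seeing the data. That cluster had 60 Ctgf UMIs in its 40 old cells, 154 CPM. In fibroblast-like cells the ratio was larger, with 42 UMIs (14.0 CPM) in old and 171 UMIs (83.1 CPM) in young, a log2 ratio of -2.57 (-3.10 to -2.08), and a UMI in 1.92% of old and 12.6% of young cells at equal depth. It was the only 1 of the 7 genes with at least 100 UMIs there that had a log2 ratio of -1 or less, a share to read against 2.66% of all 5606 genes; none had a ratio of 1 or more, against 1.59%. The difference in size between classes was not tested.

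Within the fibroblast-like clusters the Ctgf ratio was smaller than over the class. Cluster 3, led by Col1a1, Cygb and Gpx3, held 75 old and 105 young cells, and there Ctgf stood at 50.8 CPM in old and 170 CPM in young, a log2 ratio of -1.74 (-2.69 to -0.91). Cluster 6, led by Igfbp5, Clec3b and Dpt, held 497 old and 134 young cells, and there Ctgf stood at 10.5 CPM in old and 34.2 CPM in young, a log2 ratio of -1.70 (-2.42 to -0.99). The cluster with the higher Ctgf level made up less of the old library. Exons of Ctgf overlap those of Gm15270 on the other strand, and whether counting used strand is not given in the sources used here.

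Ankrd1 (chromosome 19, 36111961 to 36120099) encodes an ankyrin repeat protein of muscle nuclei and sarcomeres that YAP and TEAD induce in many cultured cells. In EC-like cells it had 1 UMI in old and 0 in young, with an exact upper limit of 0.364 CPM. In fibroblast-like cells it had 13 UMIs in old, 4.33 CPM (2.30 to 7.40), and 0 in young, with an exact upper limit of 1.79 CPM. All 13 UMIs fell in cluster 6, and the 1% of old fibroblast-like cells with most Ankrd1 held 76.9% of them. The unnamed smooth muscle marked cluster had 5 more UMIs in its 40 old cells, 12.8 CPM. Ankrd1, which like Ajuba has 2 TEAD matches in its window, was barely detected in EC-like cells at this depth.

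Amotl2 (chromosome 9, 102716672 to 102733418) encodes an angiomotin family scaffold at cell junctions that can hold YAP in the cytoplasm. In EC-like cells it stood at 42.8 CPM (606 UMIs) in old and 67.6 CPM (686 UMIs) in young, a log2 ratio of -0.66 (-0.82 to -0.50). At equal depth 11.5% of old and 18.7% of young EC-like cells had a UMI, a difference of -7.20 percentage points that became -3.01 at a depth of 2000 UMIs. The log2 ratio was -0.72 (-0.99 to -0.46) in the Coch/Sost/Adra2a subtype and -0.37 (-0.59 to -0.15) in the Bcan/Isl1/Frzb subtype. In fibroblast-like cells Amotl2 had 77.9 CPM in old and 83.6 CPM in young, and the interval of the ratio, -0.39 to 0.19, held 0.

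Ajuba (chromosome 14, 54567472 to 54577558) encodes a LIM domain protein that binds LATS kinases and restrains them. In EC-like cells it stood at 13.4 CPM (190 UMIs) in old and 25.6 CPM (260 UMIs) in young, a log2 ratio of -0.93 (-1.21 to -0.66). The ratio was -0.81 (-1.27 to -0.36) in the Coch/Sost/Adra2a subtype and -0.78 (-1.15 to -0.40) in the Bcan/Isl1/Frzb subtype. Ajuba was the gene of the 9 with the largest excess in EC-like over fibroblast-like cells: fibroblast-like cells had 2.99 CPM (9 UMIs) in old and 3.40 CPM (7 UMIs) in young, and the log2 ratio of EC-like over fibroblast-like was 2.16 (1.21 to 3.32) in old and 2.91 (1.85 to 4.24) in young. Of its 50-base words near the 3′ end, 14.3% recur in other genes, so its counts are uncertain.

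Lats2 (chromosome 14, 57689662 to 57758388), the kinase that phosphorylates YAP and TAZ, stood at 80.7 CPM in old and 74.3 CPM in young EC-like cells, for a log2 ratio of 0.12 (-0.02 to 0.25). At equal depth 21.4% of old and 21.5% of young EC-like cells had a UMI. In fibroblast-like cells it had 49.6 CPM in old and 54.4 CPM in young, with an interval of the ratio of -0.50 to 0.23. Of its 50-base words near the 3′ end, 30.9% are shared with Gm49361 on the same strand, so reads could be split between these genes.

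Yap1 (chromosome 9, 7931999 to 8004596) stood at 51.9 CPM (734 UMIs) in old and 42.1 CPM (427 UMIs) in young EC-like cells, for a log2 ratio of 0.30 (0.13 to 0.48). In the Coch/Sost/Adra2a subtype Yap1 had 65.0 CPM (213 UMIs) in old and 37.2 CPM (179 UMIs) in young, a log2 ratio of 0.80 (0.51 to 1.10), above 98.6% of all genes in that subtype. In the Bcan/Isl1/Frzb subtype it had 47.9 CPM in old and 46.5 CPM in young, a log2 ratio of 0.04 (-0.18 to 0.27). The order of the subtypes turned with the library as well: Coch/Sost/Adra2a over Bcan/Isl1/Frzb, the log2 ratio was 0.44 (0.20 to 0.67) in old and -0.32 (-0.61 to -0.04) in young. Cluster 2 held 487 old and 33 young cells of the Coch/Sost/Adra2a subtype. Its Yap1 log2 ratio was 0.93, the young side had 4 UMIs and the interval, -0.45 to 2.82, held 0. In clusters 0 and 5, of the Bcan/Isl1/Frzb subtype, the ratio was 0.18 (-1.15 to 1.25) and -0.43 (-1.13 to 0.37). The difference between subtypes was not tested, and 3.07% of the 50-base words near the 3′ end of Yap1 are shared with Gm20416 on the other strand.

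Wwtr1 (chromosome 3, 57455649 to 57575910) and Tead1 (chromosome 7, 112679318 to 112906807) had like levels in both libraries over the EC-like class. Wwtr1 stood at 100 CPM in old and 102 CPM in young EC-like cells, for a log2 ratio of -0.02 (-0.14 to 0.10). Tead1 stood at 24.4 CPM in old and 25.9 CPM in young EC-like cells, for a log2 ratio of -0.09 (-0.32 to 0.15). Both intervals also held 0 in fibroblast-like cells and in each subtype. Inside EC-like cluster 5, however, Tead1 was lower in old. It had 27.8 CPM (180 UMIs) in old and 55.1 CPM (15 UMIs) in young, a log2 ratio of -0.99 (-1.75 to -0.12). In clusters 0 and 2 the Tead1 intervals held 0, with 1 old UMI in cluster 0 and 2 young UMIs in cluster 2. The Wwtr1 intervals held 0 in clusters 0, 2 and 5. By class, Wwtr1 was higher in EC-like than in fibroblast-like cells, which had 37.3 CPM in old and 32.6 CPM in young: the log2 ratio of EC-like over fibroblast-like was 1.43 in old and 1.64 in young. Yap1 had the same direction, 1.26 in old and 1.01 in young, while Tead1 was at 32.6 CPM in old and 29.2 CPM in young fibroblast-like cells, ratios of -0.42 in old and -0.17 in young. Between these classes 3 of 8 genes in old (Ajuba, Yap1 and Wwtr1) were past a log2 ratio of 1, against 19.9% of all genes, and the same 3 of 8 in young, against 17% of all genes. Only Ctgf in young, at -1.97, was past -1, against 8.33% of all genes in old and 9.4% in young.

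**Figure D3:**
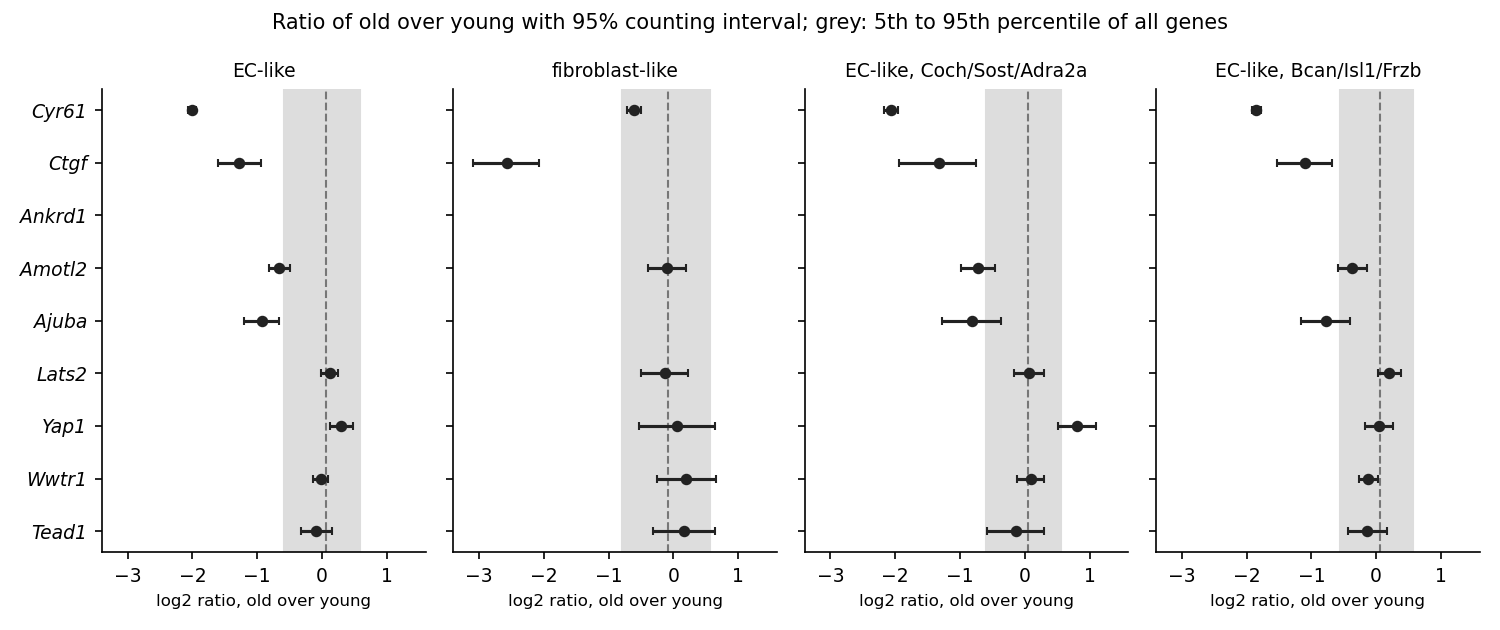
Log2 ratio of old over young (horizontal axes) for each gene with at least 100 UMIs in EC-like cells, fibroblast-like cells and the 2 endothelial subtypes, with exact 95% counting intervals as bars. The dashed line is the median of all genes and the grey band their 5th to 95th percentiles, -0.59 to 0.58 in EC-like cells. Cyr61 lies at -2.01 in EC-like and -0.61 in fibroblast-like cells, and Yap1 is right of the band in the Coch/Sost/Adra2a subtype only, at 0.80. Ankrd1 has no point in any panel, and Ajuba none in fibroblast-like cells, because they had under 100 UMIs there.

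In each subtype the members past a log2 ratio of -1 were again Cyr61 and Ctgf, 2 of 8, against 1.63% of all genes in the Coch/Sost/Adra2a subtype and 1.57% in the Bcan/Isl1/Frzb subtype, and none was past 1, against 0.701% and 1.14%. For Ctgf the log2 ratio was -1.33 (-1.94 to -0.75) in the Coch/Sost/Adra2a subtype, from 9.77 CPM in old and 24.5 CPM in young. It was -1.10 (-1.53 to -0.68) in the Bcan/Isl1/Frzb subtype, from 8.46 CPM in old and 18.2 CPM in young. Those Ctgf values moved with the cell filter and with the clustering, which was redone each time. With at most 5% mitochondrial UMIs the Coch/Sost/Adra2a value became -0.62 and the Bcan/Isl1/Frzb value -1.92. The Bcan/Isl1/Frzb value was -2.38 with doublet calls kept and -0.64 at a finer clustering. Keeping the doublet calls, 6 in each library, left 1100 old and 599 young cells in that subtype, against 1902 and 659. The finer clustering left 1403 and 626. No gene of the 9 was past 1 or -1 between the subtypes in either library, where 0.785% (higher) and 1.37% (lower) of all genes were in old, and 1.12% and 1.41% in young.

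Immediate early genes, which are switched on within minutes of stimulation or tissue handling, were lower in old when summed over all EC-like cells. Of 17 on the list, 14 had at least 100 UMIs in EC-like cells, all 14 were lower in old, where 41.3% of all genes were, and 9 had a log2 ratio of -1 or less, against 1.99% of all genes, with a median of -1.16 beside 0.06 over all genes. In fibroblast-like cells 15 were measured, 10 were lower in old, where 59.7% of all genes were, and 2 had a ratio of -1 or less, against 2.66% of all genes. The other 5 were higher in old, 3 of them with an interval above 0 (Ier3 at 0.94, Nr4a1 at 0.46 and Btg2 at 0.30, named after their values were seen), and the median of the 15 was -0.55 beside -0.09 over all genes. Their summed level was 4091 CPM in old and 8197 CPM in young EC-like cells, and 7788 CPM in old and 10846 CPM in young fibroblast-like cells. The lowest ratios were those of Atf3 (13.1 CPM in old, 111 CPM in young, -3.08) and Fos (219 CPM in old, 878 CPM in young, -2.0), and the highest those of Btg2 (186 CPM in old, 247 CPM in young, -0.41) and Ier2 (870 CPM in old, 1124 CPM in young, -0.37). Inside EC-like clusters 0 and 5 the Fos log2 ratio was -1.84 (-2.39 to -1.34) and -0.99 (-1.28 to -0.68). In cluster 2 it was -0.14 (-0.79 to 0.58), with 20 Fos UMIs on the young side. Cyr61 is itself known as an immediate early gene, induced by serum within minutes. What part handling had in the difference between the libraries was not tested, and handling of the 2 animals cannot be told apart from age.

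Cyr61 was therefore also read by the Fos count of the same cell at equal depth. In EC-like cells with no Fos UMI, 1156 old and 406 young, Cyr61 had a mean of 0.633 UMIs per cell in old and 1.77 in young, a log2 ratio of -1.48 (-1.63 to -1.33). In cells with 1 Fos UMI the means were 0.816 in old and 2.20 in young, a ratio of -1.43 (-1.65 to -1.22). In cells with 2 to 3 Fos UMIs they were 0.821 in old and 3.44 in young, a ratio of -2.07, and in cells with 4 or more, 77 old and 242 young, 1.38 in old and 5.21 in young, a ratio of -1.92 (-2.22 to -1.63). In both libraries the mean was thus highest in cells with most Fos, and at each Fos count old cells had less Cyr61, by less than over the whole class where Fos was 0 or 1. Cells with no Fos UMI were not matched for the other immediate early genes. The median log2 ratio of that list in such EC-like cells was still -0.80. In fibroblast-like cells the ratio was -0.47 (-1.04 to 0.12) with no Fos UMI and -0.12 (-0.73 to 0.53) with 1. With 2 to 3 Fos UMIs it was -0.67 (-1.02 to -0.32), the only interval there below 0. With 4 or more it was -0.22 (-0.44 to 0.01), from 2.47 in old and 2.88 in young. For Ctgf the EC-like cells with no Fos UMI gave 26 UMIs in old and 16 in young, a ratio of -0.81 whose interval, -1.76 to 0.19, held 0, and for Amotl2 they gave -0.66 (-1.05 to -0.26).

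**Figure D4:**
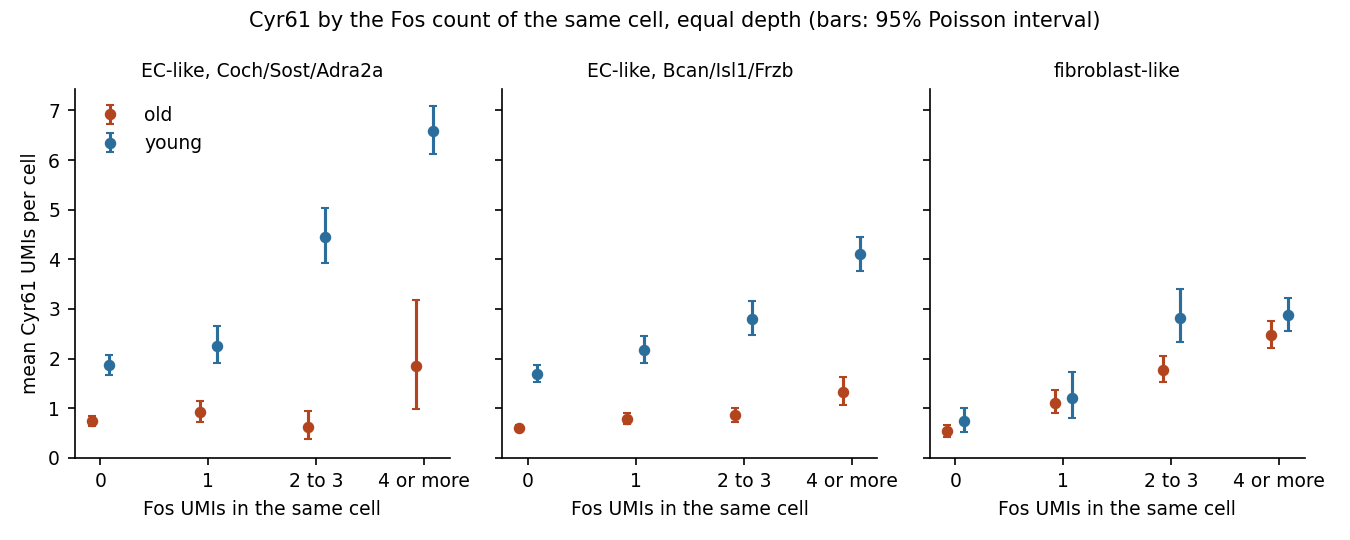
Mean Cyr61 UMIs per cell at equal depth (vertical axis) by the number of Fos UMIs of the same cell (horizontal axis), for the 2 endothelial subtypes and fibroblast-like cells, with old left of young. Bars are exact 95% Poisson intervals. In the Bcan/Isl1/Frzb subtype the means at 4 or more Fos UMIs are 1.33 in old and 4.10 in young, and in fibroblast-like cells 2.47 in old and 2.88 in young.

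Other targets of YAP and TAZ lay on both sides of 0. Of 17 other genes of a YAP and TAZ signature, 11 were measured in EC-like cells, 7 were below 0, where 41.3% of all genes were, and 4 above. In this list 1 was past -1, against 1.99% of all genes, and none past 1, against 1.31%, and the median log2 ratio was -0.16. The lowest were Nt5e, the surface enzyme CD73 that makes adenosine, at 46.2 CPM in old and 98.8 CPM in young (-1.10, -1.24 to -0.95), and Foxf2, a forkhead transcription factor, at 8.13 CPM in old and 15.1 CPM in young (-0.89). The highest were Asap1, an Arf GTPase activating protein, at 55.4 CPM in old and 40.1 CPM in young (0.47), and Axl, a receptor tyrosine kinase, at 17.8 CPM in old and 13.0 CPM in young (0.45). Axl stood at 754 CPM in old and 910 CPM in young fibroblast-like cells, and the part of free RNA from that class in its EC-like level was not tested. In fibroblast-like cells 9 of the signature were measured, 5 were below 0, where 59.7% of all genes were, 2 were past -1, against 2.66% of all genes, and 1 was past 1, against 1.59%. These 3, named after their values were seen, were F3 at -2.27, Ccdc80 at -1.35 and Tgfb2 at 1.46. Fibroblast-like cluster 3 held 75 old and 105 young cells, and cluster 6 held 497 old and 134 young cells. What part this make-up had in the 3 ratios was not tested.

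Genes that regulate the pathway had ratios on both sides of 0. Of 21 other genes of the Hippo cascade and its regulators, 19 were measured, 8 were below 0, a share near the 41.3% of all genes, and 11 above. None was past -1 or 1, against 1.99% and 1.31% of all genes, and the median was 0.13 beside 0.06 over all genes. Vgll4, which competes with YAP for TEAD proteins, was highest, at 69.2 CPM in old and 38.3 CPM in young (0.86, 0.68 to 1.03), followed by Amot, an angiomotin like Amotl2, at 8.2 CPM in old and 5.82 CPM in young (0.49). The lowest were Fat4, a giant protocadherin, at 3.11 CPM in old and 5.72 CPM in young (-0.88), and Stk3, a Hippo kinase upstream of LATS, at 15.9 CPM in old and 20.8 CPM in young (-0.39). Of the other TEAD genes, Tead4 had 8.55 CPM in old and 5.23 CPM in young (0.71, 0.23 to 1.20), Tead2 had 36.8 CPM in old and 41.3 CPM in young (-0.17, -0.35 to 0.02), and Tead3 had too few UMIs. None of the 4 other CCN genes, the family of Cyr61 and Ctgf, reached 100 UMIs in EC-like cells. In fibroblast-like cells 2 did, and both were higher in old, where 59.7% of all genes were lower. Their median was 0.62 beside -0.09 over all genes.

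**Figure D5:**
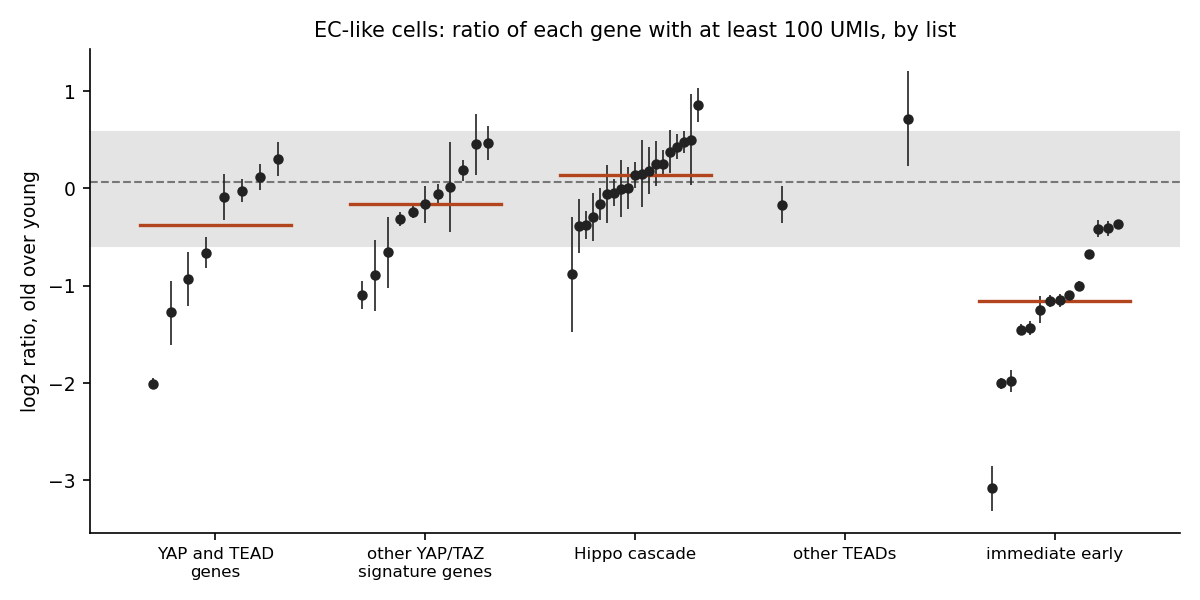
Log2 ratio of old over young in EC-like cells (vertical axis) for each gene with at least 100 UMIs, ordered by value within each list, with 95% counting intervals as thin lines. Coloured lines are list medians, the dashed line is the median of all genes and the grey band their 5th to 95th percentiles. The medians are -0.37 for the 8 YAP and TEAD genes, -0.16 for the signature, 0.13 for the Hippo cascade and -1.16 for the immediate early genes.

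From cell to cell the correlations between 8 of the 9 genes were weak in EC-like cells, where Ankrd1 had no UMI after thinning. Over EC-like cells at equal depth, Pearson's r of Cyr61 with Ctgf was 0.11 in old (1831 cells) and 0.17 in young (988 cells), and with Yap1 0.03 in old and 0.02 in young, all within 1 library and from sparse counts. Cyr61 with Fos gave 0.13 in old and 0.36 in young EC-like cells, and 0.36 in old and 0.32 in young fibroblast-like cells. Among 3914 genes seen in at least 10% of these EC-like cells in both libraries, those most like Cyr61 were Bmp4 (r of 0.23 in old and 0.29 in young), 1500015O10Rik, Junb, Apoe and Edn1, ranked by the lower r of the 2 libraries. For Ctgf they were Bmp4 (0.15 in old and 0.14 in young), Edn1, Thbs1, Cyr61 and Apoe. For Amotl2 they were 1500015O10Rik, Eln, Bmp4, Tmem109 and Cbfa2t3, with no r above 0.11. These EC-like values pooled both subtypes. Bmp4 and 1500015O10Rik were among the top genes of cluster 1, of the Coch/Sost/Adra2a subtype. What part the difference between subtypes had in these values was not tested.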

How the data were processed

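The authors deposited raw UMI counts, whole numbers for each gene in each cell barcode. Cell Ranger and GRCm38 are named in the submitters' processing notes, and the gene annotation and strand setting were not given in the sources used here. Cells were kept if they had 200 genes or more and a mitochondrial share of 10% or less. Scrublet called 0.180% of old and 0.440% of young barcodes as doublets, so it did not work as a filter; these calls were removed. Cells were clustered together with scanpy 1.11.5 (2000 variable genes less the members and lists, which left 1973, 30 components, 15 neighbours, Leiden resolution 0.5, no batch correction). Clusters were named by markers, where at least 3 markers of a class were each seen in 25% of cells, and stayed unnamed where another class led the top 10 genes by fold. Subtypes needed 2 markers. UMIs were summed per class and library as CPM, with exact Poisson, conditional binomial and Clopper-Pearson 95% intervals. Ratio code was tested on simulated counts. The members and lists were chosen with earlier results of these data known. The text names, by rule, the 2 top and 2 bottom genes of each list by EC-like ratio, beside all members and the 5 genes most like Cyr61, Ctgf and Amotl2. Alternatives for filters, classes, scaling and thinning were run. Gene coordinates are those of GENCODE on GRCm38, matched by name, with Cyr61 and Ctgf listed there as Ccn1 and Ccn2. Words of 50 bases from the last 500 bases of transcripts were compared between genes.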

Additional observations from a re-analysis of the deposited data

How the results depend on the processing

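No ratio past the threshold changed direction among those of the 9 genes in the alternatives run, and the median of the Hippo cascade in EC-like cells turned to -0.010 when the mean count per thinned cell was used; the cause was not tested. The median of the immediate early list moved to -1.26 with both subtypes weighted equally and to -0.80 in EC-like cells with no Fos UMI, alternatives chosen after seeing the data; the cause was not tested. Of 80 recomputed summary values 77 stayed within the limits set for no change, and of 332 for single genes 314 did. In EC-like cells the Cyr61 ratio ran over -2.10 to -1.48, with -1.48 in cells with no Fos UMI, Ctgf over -1.99 to -0.77, Ajuba over -1.12 to -0.80, and Yap1 over 0.24 to 0.54. In these alternatives for EC-like cells, Lats2, Wwtr1 and Tead1 stayed near 0, over -0.16 to 0.14. With doublet calls kept, 2132 old and 1073 young cells were EC-like. In fibroblast-like cells the Ctgf ratio reached -3.4 as a mean per thinned cell. Removing the median ratio of all genes moves every EC-like ratio by 0.06. No paired analysis was possible because each age has 1 library, and leaving out a replicate was not possible for the same reason. Ctgf, Ajuba and Ankrd1 are limited by depth.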
